A study of Mus musculus with 9 samples.

Results

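Ehd3, Capn13, Xdh, Memo1, Dpy30, Spast, Yipf4, Birc6, Lclat1 and Ltbp1 are genes that flank Srd5a2 on mouse chromosome 17, each with its body within 1 Mb of the Srd5a2 gene body. The list was selected on position together with measured values, since it was drawn up with counts by genotype already known, so the members' values are a description without a test. The 10 members are 10 of the 54532 genes in the count table and 10 of the 16836 tested. The annotation places 38 genes within 1 Mb of Srd5a2. Of these, 16 were tested (the 10 members and 6 others), 4 had counts but fell under the low-count filter and 18 had no count in any library. All 10 members stood at or above the filter's level of 0.521 CPM (read counts scaled to the size of the library) in each of the 9 libraries.

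Bulk RNA-seq was made from mouse prostate of 3 genotypes: wild type (WT), heterozygous (Het, Srd5a2+/-) and Srd5a2-null (KO, Srd5a2-/-), with 3 libraries each, numbered 1 to 3 here. Het males of a null line made earlier were crossed with WT C57BL6 females, and the null males came from the third generation. The deleted part of Srd5a2, the strain in which the allele was made, the prostate lobes and the ages have no entry in the labels and design text used. Whether each library is a separate mouse is not stated, so all spreads and p-values refer to these libraries and may be technical.

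Srd5a2 encodes steroid 5-alpha-reductase type 2, the enzyme that turns testosterone into the more potent androgen dihydrotestosterone in the prostate and other male tissues. The genes around it have unrelated tasks, in endosome recycling, proteolysis, purine breakdown, chromatin, the cytoskeleton, the Golgi, cell death, lipid remodelling and extracellular matrix. Genes that lie close together on a chromosome can share regulatory DNA, so neighbours are commonly examined beside an altered gene. The comparison asked whether their expression followed the number of null alleles, and whether any difference shrank with distance.

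The members lie on both sides of Srd5a2 (chr17:74016955-74047916 in GRCm38, minus strand), and distances are the gaps between gene bodies. On the lower-coordinate side come Xdh (chr17:73883895-73950196, minus strand, 66.8 kb away), Ehd3 (chr17:73804134-73832094, plus strand, 185 kb), Capn13 (chr17:73306464-73400866, minus strand, 616 kb) and Lclat1 (chr17:73107985-73243368, plus strand, 774 kb). On the other side come Memo1 (chr17:74199055-74295521, minus strand, 151 kb), Dpy30 (chr17:74299474-74323944, minus strand, 252 kb) and Spast (chr17:74338987-74391115, plus strand, 291 kb). Farther out lie Yipf4 (chr17:74489493-74500277, plus strand, 442 kb), Birc6 (chr17:74528295-74703356, plus strand, 480 kb) and Ltbp1 (chr17:75005568-75392512, plus strand, 958 kb). All 10 are protein-coding. Ltbp1 is just inside the 1 Mb limit. Just outside it on the other flank are Lbh at 1075 kb, with a log2 fold change in KO against WT of 0.34, and Ypel5 at 1166 kb, with -0.06. Annotated genes that overlap a member took at most 4 reads over all libraries, those on Memo1, so shared reads were few.

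Ehd3 and Capn13 had the highest ratios of KO to WT among the members, and the 250 bases upstream of their RefSeq starts are shown beside those of Srd5a2 because their CpG content differed. The sequences are from RefSeq on GRCm38.p6, written 5′ to 3′ on the gene's own strand with each CG in capitals. They cover chr17:73804591-73804840 (plus strand) for Ehd3 and chr17:73399297-73399546 (minus strand) for Capn13. For Srd5a2 they cover chr17:74047917-74048110 (minus strand), without the last 56 bases of the window, which GENCODE vM21 annotates as untranslated region. The RefSeq starts of Ehd3 and Capn13 lie inside the gene bodies of the deposited annotation.
Ehd3: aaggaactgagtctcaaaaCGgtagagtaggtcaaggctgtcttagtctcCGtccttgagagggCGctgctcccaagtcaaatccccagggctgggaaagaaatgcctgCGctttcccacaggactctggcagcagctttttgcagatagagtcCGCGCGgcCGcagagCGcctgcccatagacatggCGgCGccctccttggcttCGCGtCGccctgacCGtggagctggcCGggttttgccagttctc
Capn13: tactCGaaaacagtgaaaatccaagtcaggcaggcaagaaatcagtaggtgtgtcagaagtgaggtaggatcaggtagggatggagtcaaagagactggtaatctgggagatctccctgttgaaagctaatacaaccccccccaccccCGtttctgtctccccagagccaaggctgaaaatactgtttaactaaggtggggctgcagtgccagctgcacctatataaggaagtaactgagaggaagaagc
Srd5a2: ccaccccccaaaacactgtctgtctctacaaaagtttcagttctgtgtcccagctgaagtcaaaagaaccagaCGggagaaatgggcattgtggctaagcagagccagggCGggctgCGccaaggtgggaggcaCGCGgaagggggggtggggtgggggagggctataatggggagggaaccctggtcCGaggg
Over the full 250 bases, Ehd3 had 16 CG pairs at a GC content of 60.0%, Srd5a2 12 at 63.2% and Capn13 2 at 48.8%. The median over 32851 RefSeq promoter windows of the same length was 6. RefSeq entries were matched for 9 of the 10 members, all but Xdh. Of the other matched members, Memo1 had 32 CG pairs, Spast 31, Birc6 and Lclat1 18 each, Yipf4 10, the 2 Ltbp1 starts 12 and 7, and the 4 Dpy30 starts 1 to 34.

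Some short motifs, 3 in all, were searched as exact letters. TATAAA, the core of the TATA box, was searched on the gene's strand and is held by 7.59% of all windows. Among the 9 matched members it was present in 1, Yipf4, and it was absent from the Srd5a2 window. GGGCGG, the GC box, searched on both strands, is held by 32.7% of all windows. It was present in Memo1, Spast, Yipf4, Birc6 and Lclat1 and in Srd5a2, and absent from Ehd3, Capn13, Dpy30 and Ltbp1. AGAACA, a half-site of androgen receptor elements, searched on both strands, is held by 16.1% of all windows and by none of the 9 members or Srd5a2. No motif searched contains another, and a match or its absence describes these letters in this window only.

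Total counts ran from 16233392 to 24017791 per library. The luminal epithelium markers were all detected (8 of 8 tested), with summed levels of 5029 to 31370 CPM. The 8 seminal vesicle markers, also all tested, summed to 31080 to 220200 CPM in WT and 95070 to 191400 CPM in KO. In Het they ran from 6595 CPM in Het 1 to 359200 CPM in Het 2. The seminal vesicle sum was not used as a covariate, and its part in the differences was not tested. In 3 libraries (WT 1, WT 3 and Het 2) the summed ventral prostate secretion markers stood at 55.5, 281 and 268 CPM, against 39810 to 163800 CPM in the other 6. They are called the 3 libraries low in Sbp, after the leading secretion gene. KO 2 had the highest skeletal muscle sum, 5130 CPM, against 141 to 1306 CPM in the other 8. Without the 3 libraries low in Sbp, WT is 1 library (WT 2) and Het 2 libraries, and that lone library is assumed to vary like the other groups. Values in KO against WT and Het against WT that moved by more than the spread between libraries without these 3, or with these scores as covariates, are given beside the member.

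Srd5a2 itself, the altered gene, stood at 2.30, 5.50 and 8.81 CPM in the WT libraries, 3.68, 5.19 and 2.37 CPM in Het, and 0.93, 0.51 and 1.15 CPM in KO. The KO libraries were below every WT and Het library, and WT and Het overlapped. The log2 fold change was -2.67 in KO against WT (SE 0.62) and -0.56 in Het against WT (SE 0.58), and per null allele it was -1.32 (95% interval -2.09 to -0.54). In bulk tissue, fewer cells of a type and less RNA per cell cannot be told apart, here or for any member.

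Ehd3, an EH-domain ATPase of endosome recycling, was the member with the widest difference. It stood at 0.73, 1.46 and 0.62 CPM in WT, 2.76, 3.03 and 3.15 CPM in Het, and 2.75, 6.14 and 5.13 CPM in KO. Each Het and KO library was above each WT library, while Het and KO overlapped, with KO 1 level with the lowest Het library. These levels rest on few reads: 14, 33 and 12 in WT, 51, 66 and 57 in Het, and 50, 108 and 98 in KO. The log2 fold change was 2.30 in KO against WT (SE 0.54, 95% interval 1.09 to 3.51, n = 3 per group) and 1.65 in Het against WT (SE 0.53, interval 0.46 to 2.85). KO against Het differed by 0.65 (SE 0.51, interval -0.50 to 1.80), and the value per null allele was 1.14 (interval 0.51 to 1.78). KO against WT was 2.82 without WT 2, 2.05 without KO 2, and 1.67 against the single WT library (WT 2) that remained without the 3 low in Sbp. Het against WT was 2.18 without WT 2 and 1.0 against that single library.

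Ehd3 was the least abundant of the EHD family, which has 4 members. By FPKM, which is per length, its WT, Het and KO means were 0.14 ± 0.07, 0.45 ± 0.03 and 0.70 ± 0.27 (SD, n = 3 each). Ehd1 averaged 15.7 ± 1.09, 15.2 ± 1.74 and 15.9 ± 1.30 FPKM, and Ehd2 and Ehd4 had genotype means of 11.1 to 17.8 FPKM. The log2 fold changes of Ehd1, Ehd2 and Ehd4 in KO against WT were 0.02, 0.22 and 0.21, and none passed in edgeR (adjusted p = 0.9996 for each). In Het against WT they were -0.07, 0.23 and 0.43, and the Ehd4 interval ran from 0.01 to 0.85. None of the relatives passed in edgeR there either. The test of whether Ehd3 differed from its relatives was not made.

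Capn13, a calpain, one of the calcium-dependent cysteine proteases, had the second widest difference. It stood at 1.62, 0.75 and 1.87 CPM in WT, 1.46, 6.89 and 3.92 CPM in Het, and 5.99, 7.22 and 3.82 CPM in KO. The KO libraries were all above the WT libraries, and Het spanned both, with Het 1 among the WT values. The reads were 31, 17 and 36 in WT, 27, 150 and 71 in Het, and 109, 127 and 73 in KO. Capn13 had a log2 fold change of 2.0 in KO against WT (SE 0.63, 95% interval 0.60 to 3.40, n = 3 per group) and 1.53 in Het against WT (SE 0.62, interval 0.15 to 2.92). KO against Het was 0.47 (SE 0.60, interval -0.87 to 1.81). Single libraries set that last value, which was 0.07 without Het 1 and 1.08 without Het 2, and turned to -0.17 when the skeletal muscle score was a covariate. KO against WT ranged from 1.55 with the skeletal muscle score to 2.90 against WT 2 alone, the lowest WT library for this gene, when the 3 low in Sbp were left out, with 2.87 when Sbp was a covariate, and Het against WT was 0.91 without Het 2.

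**Figure D1:**
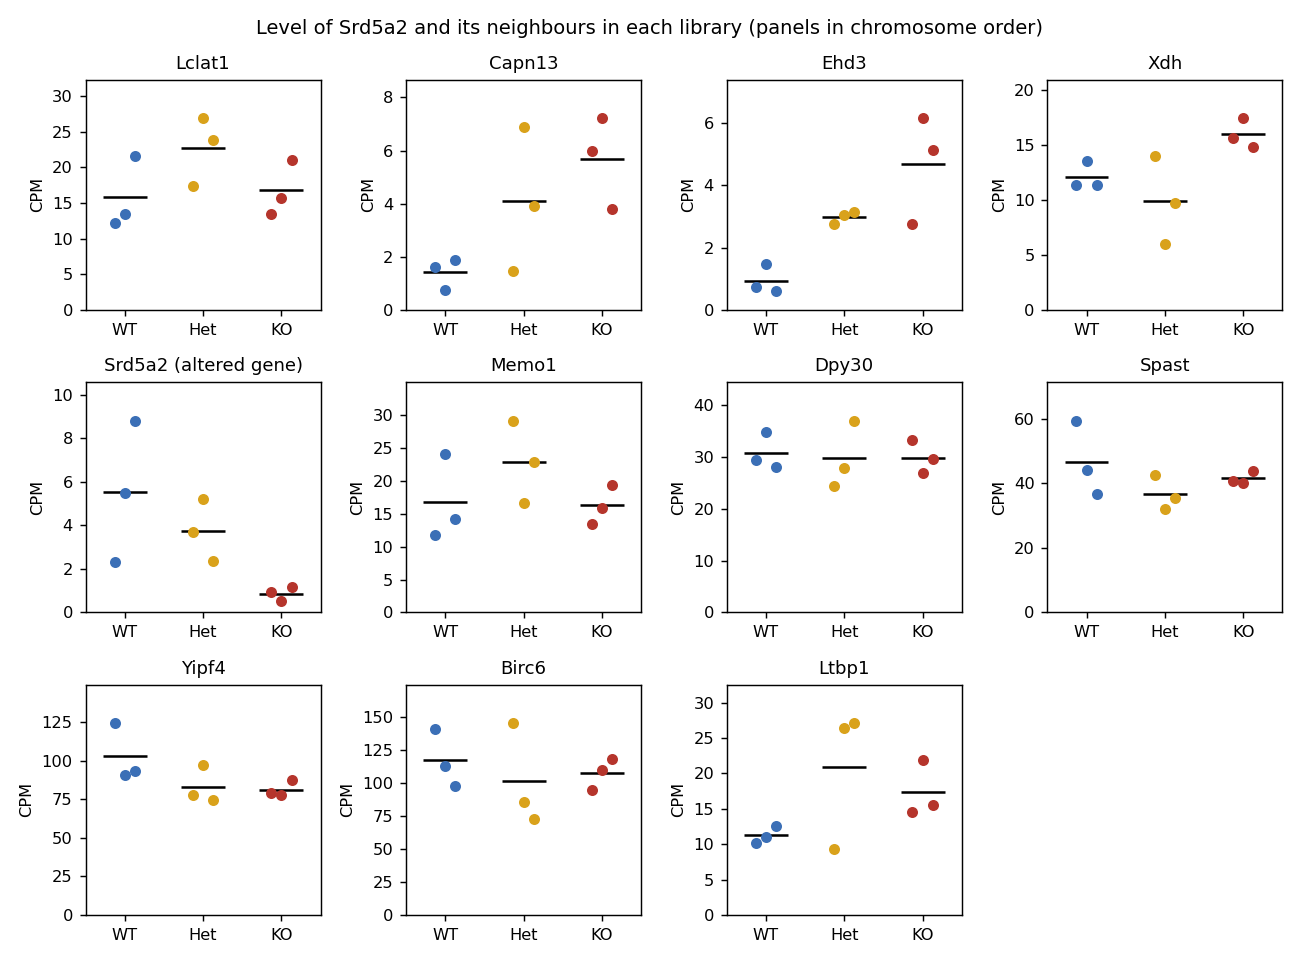
Level of each gene in CPM (TMM-scaled counts; each panel has its own axis from 0) in the 9 libraries, with 1 point per library in the order of replicates 1 to 3 and a bar at each genotype's mean. Ehd3 is the member whose 6 Het and KO libraries all lie above the 3 WT libraries, and Srd5a2 is lowest in KO.

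Markers of the proximal luminal epithelium, the cells that line the ducts near the urethra, moved by genotype with both genes. These 7 markers, all tested and none at 0, summed to 60.5 to 113 CPM in WT, 144 to 242 CPM in Het and 261 to 491 CPM in KO, so the 3 genotypes did not overlap. The 7 Schwann cell markers, also all detected, summed to 86.0 to 90.6 CPM in WT, 74.3 to 140 CPM in Het and 127 to 155 CPM in KO, with KO above WT. Skeletal muscle markers ran from 342 to 1306 CPM in WT and from 744 to 5130 CPM in KO and overlapped. The 6 urothelium markers, all detected, summed to 127 to 305 CPM in WT, 354 to 413 CPM in Het and 344 to 381 CPM in KO, so Het and KO both lay above WT. Other sets lay below WT in Het. Luminal epithelium markers summed to 14860 to 31370 CPM in WT, 5029 to 14680 CPM in Het and 8722 to 19440 CPM in KO. Endothelium markers ran from 72.5 to 121.5 CPM in WT, 36.7 to 55.1 CPM in Het and 78.7 to 155.7 CPM in KO. For macrophages the sums were 70.0 to 103.7, 39.6 to 58.1 and 69.1 to 107.4 CPM. The part of any of these markers in the Ehd3 and Capn13 differences was not tested.

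**Figure D2:**
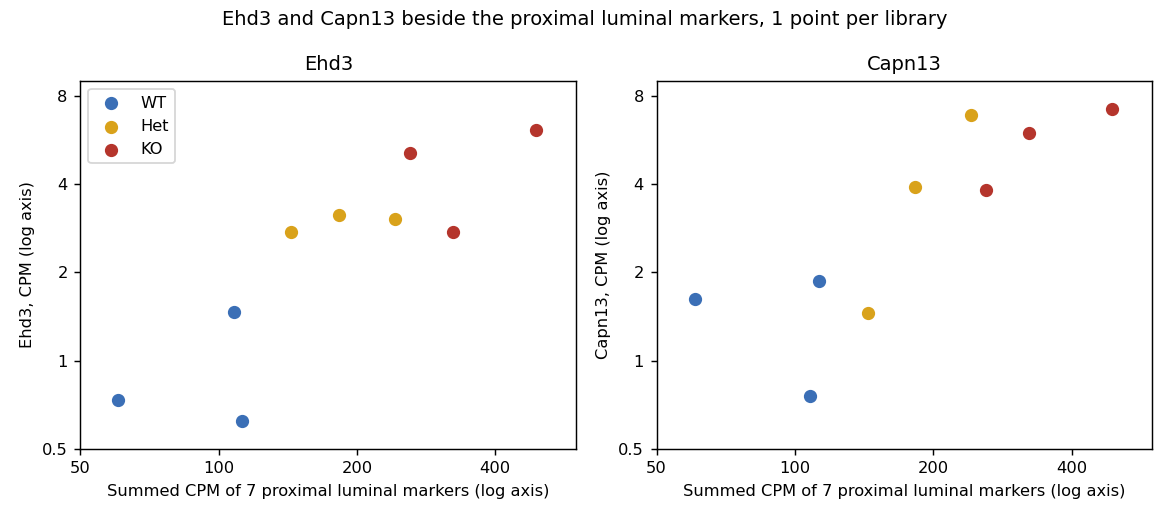
Ehd3 (left) and Capn13 (right), in CPM, against the summed CPM of the 7 proximal luminal markers in each of the 9 libraries, on log axes and coloured by genotype. The WT libraries lie at 60.5 to 113 CPM of the markers and hold the 3 lowest Ehd3 levels, while for Capn13 Het 1 lies among them.

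Xdh, which encodes xanthine dehydrogenase, the enzyme that makes uric acid in purine breakdown, is the member closest to Srd5a2. It stood at 11.4, 13.5 and 11.3 CPM in WT, 14.0, 5.97 and 9.77 CPM in Het, and 15.7, 17.5 and 14.8 CPM in KO. All KO libraries were above all WT and all Het libraries, and WT and Het overlapped, so the means did not follow the allele count. The log2 fold change was 0.40 in KO against WT (SE 0.30, 95% interval -0.28 to 1.08), -0.29 in Het against WT (SE 0.30) and 0.69 in KO against Het (SE 0.30, interval 0.00 to 1.37). With Sbp as a covariate the KO against WT value was 0.02.

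Ltbp1, a binding protein that holds latent TGF-beta in the matrix, is the member farthest from Srd5a2. It stood at 10.1, 11.0 and 12.6 CPM in WT, 9.35, 26.4 and 27.1 CPM in Het, and 14.5, 21.8 and 15.6 CPM in KO. KO was above WT without overlap, and Het held both the lowest library, Het 1, and the highest. The log2 fold change was 0.62 in KO against WT (SE 0.37, 95% interval -0.21 to 1.45) and 0.90 in Het against WT (SE 0.37, interval 0.07 to 1.73), and the latter was 1.25 without Het 1. Its relative Ltbp2, at 0.36 to 0.78 FPKM by genotype mean, had a KO against WT value of 1.10 (SE 0.81) and a Het against WT value of 1.07 (SE 0.81). Ltbp3 and Ltbp4, at 14.5 to 28.8 FPKM by genotype mean against 1.05 to 1.99 FPKM for Ltbp1, had KO against WT values of 0.13 and 0.46. Their Het against WT values were -0.10 (SE 0.18) and -0.56 (SE 0.27), opposite in sign to Ltbp1. In KO against Het, Ltbp4 had 1.02 (SE 0.27), against -0.28 (SE 0.37) for Ltbp1. None of these relatives passed in KO against WT in edgeR (adjusted p = 0.9996).

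Yipf4, a membrane protein of the Golgi, was the member with the highest level by FPKM, while by CPM Birc6 was higher. Yipf4 stood at 124, 90.8 and 93.1 CPM in WT, 78.0, 97.0 and 74.5 CPM in Het, and 78.9, 77.5 and 87.2 CPM in KO. All KO libraries were below all WT libraries, by little, and Het overlapped both. Yipf4 had a log2 fold change of -0.34 in KO against WT (SE 0.17, 95% interval -0.71 to 0.03) and -0.31 in Het against WT (SE 0.17), and the former was -0.18 without WT 1 and -0.12 with Sbp as a covariate.

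The 3 members nearest to Srd5a2 on the higher-coordinate side had KO against WT values close to 0. Memo1, a mediator of cell motility that acts on microtubules, stood at 11.8, 24.1 and 14.3 CPM in WT, 29.1, 16.6 and 22.8 CPM in Het, and 13.5, 15.9 and 19.4 CPM in KO. Dpy30, a core subunit of the SET1/MLL histone H3 lysine methyltransferases, stood at 29.5, 34.8 and 28.1 CPM in WT, 24.4, 27.9 and 37.0 CPM in Het, and 33.2, 26.9 and 29.6 CPM in KO. The 3 genotypes overlapped for both genes. Spast, the microtubule-severing ATPase spastin, stood at 59.4, 44.0 and 36.6 CPM in WT, 42.4, 32.0 and 35.4 CPM in Het, and 40.6, 40.2 and 43.9 CPM in KO, and the KO libraries lay within the WT range. Their log2 fold changes in KO against WT were -0.04 for Memo1 (SE 0.31), -0.04 for Dpy30 (SE 0.19) and -0.17 for Spast (SE 0.20). Each of the 3 changed sign under at least 1 alternative, to 0.36 for Memo1 without WT 2, 0.12 for Dpy30 and 0.18 for Spast with the skeletal muscle score. Memo1 moved farther the other way, to -0.47 with Sbp as a covariate and -0.57 without the 3 libraries low in Sbp.

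Birc6 and Lclat1 also overlapped between genotypes. Birc6, a very large inhibitor of apoptosis protein with ubiquitin-conjugating activity, stood at 141, 113 and 97.5 CPM in WT, 145, 85.2 and 72.9 CPM in Het, and 94.7, 110 and 118 CPM in KO. Lclat1, an acyltransferase that remodels cardiolipin and other phospholipids, stood at 12.2, 13.5 and 21.7 CPM in WT, 17.5, 26.9 and 23.8 CPM in Het, and 13.5, 15.8 and 21.1 CPM in KO. The highest Birc6 library and the lowest were both Het. KO differed from WT on the log2 scale by -0.12 for Birc6 (SE 0.25, 95% interval -0.68 to 0.44) and 0.09 for Lclat1 (SE 0.29, interval -0.55 to 0.73). In Het against WT, Birc6 was -0.21 (SE 0.25) and -0.57 without Het 1, and Lclat1 was 0.52 (SE 0.29). Both KO against WT values changed sign with the skeletal muscle score, to 0.12 for Birc6 and -0.33 for Lclat1.

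By FPKM over all 9 libraries, Yipf4 (41.0 ± 6.91, SD) and Dpy30 (25.8 ± 3.35) were the most abundant members, followed by Spast (6.63 ± 1.19). Lclat1 (3.71 ± 1.07) and Birc6 (3.70 ± 0.82) did not differ beyond their spread, and Memo1 (2.59 ± 0.82) overlapped both. Ltbp1 (1.55 ± 0.66), Xdh (1.36 ± 0.37) and Capn13 (1.24 ± 0.83) overlapped one another, and Ehd3 (0.43 ± 0.28) was lowest. Srd5a2 averaged 2.08 FPKM. By genotype the order of these last differed, as Capn13 averaged 0.47 FPKM in WT, 1.38 in Het and 1.88 in KO, against 1.29, 1.08 and 1.70 for Xdh.

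Counts of members were read against all genes. In KO against WT, edgeR called no member, as it called 0.0% of all 16836 genes at an adjusted p under 0.05, while 371 genes higher and 230 lower had an unadjusted p under 0.05. DESeq2 called 14 genes (0.0833%), among them Ehd3 and Srd5a2, and limma voom called 0. Srd5a2, the altered gene, was itself not called by edgeR (adjusted p = 0.9996). The lack of a call, here and for other genes, is thus not evidence of no difference. At the unadjusted threshold, 2 of the 10 members were higher (Ehd3 and Capn13), beside 2.2% of all genes, and 0 were lower, beside 1.37%. The KO libraries lay above all WT libraries for 4 members (Ehd3, Capn13, Xdh and Ltbp1), beside 8.14% of all genes, and below for 1 (Yipf4), beside 6.04%. Since the members were listed with this contrast known, nothing is read from these counts.

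In Het against WT, edgeR called 0.0% of genes, 577 higher and 945 lower had an unadjusted p under 0.05, and limma voom called 0. DESeq2 called 1.22% and no member. Ehd3, Capn13 and Ltbp1 were among the 3.43% that were higher at the unadjusted threshold, and no member was among the 5.61% that were lower. Without overlap, Het was above WT for 1 member, Ehd3 (4.7% of all genes), and below for 0 (8.59%). In KO against Het, edgeR called 0.0%, 744 genes higher and 304 lower had an unadjusted p under 0.05, limma voom called 0, and DESeq2 called 1.01% and no member. Xdh was among the 4.42% higher at the unadjusted threshold and 0 members were among the 1.81% lower. KO was above Het without overlap for Xdh alone of the members (7.8% of all genes) and below for 0 (4.12%).

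Expression that follows the allele count would place the Het mean between WT and KO. The means stood in ascending order WT, Het, KO for 2 members, Ehd3 and Capn13, beside 13.9% of all genes, and in descending order for 1, Yipf4, beside 11.9%. The other 7 had the Het mean outside the range of the WT and KO means. Both Het and KO lay wholly above WT for 1 member, Ehd3, beside 1.21% of all genes. The linear fit on the number of null alleles called 0.0% of genes in edgeR and no member.

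Another 6 tested genes lie within 1 Mb and were left out of the list, which was made with values known. None of them passed in edgeR. At an unadjusted p under 0.05 was 1 of them, Slc30a6, lower in KO against Het (-0.52, SE 0.22), and DESeq2 called none. Their adjusted p was 0.9996 in KO against WT, 0.67 to 0.994 in Het against WT and 0.754 to 0.997 in KO against Het. Galnt14, a mucin-type O-glycosylation enzyme that lies 307 kb away between Ehd3 and Capn13, had WT, Het and KO means of 0.81 ± 0.09, 0.79 ± 0.97 and 1.09 ± 0.25 CPM (SD, n = 3 each) and a KO against WT value of 0.43 (SE 1.25). Slc30a6, a zinc transporter 348 kb away, stood at 18.7, 19.2 and 19.5 CPM in WT and at 13.7, 13.9 and 16.4 CPM in KO. It was lower in KO without overlap (-0.38, SE 0.22) and spanned 15.7 to 25 CPM in Het. Nlrc4, an inflammasome sensor, had 0 to 44 reads per library and a value of 1.46 (SE 1.65). A pseudogene, CT033749.1, lies inside Nlrc4 on the same strand and makes the reads of both uncertain. Ttc27, a tetratricopeptide repeat protein, differed by -0.12 (SE 0.24) and CT010445.1, a transcript awaiting confirmatory evidence in the annotation, by -0.11 (SE 0.69).

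**Figure D3:**
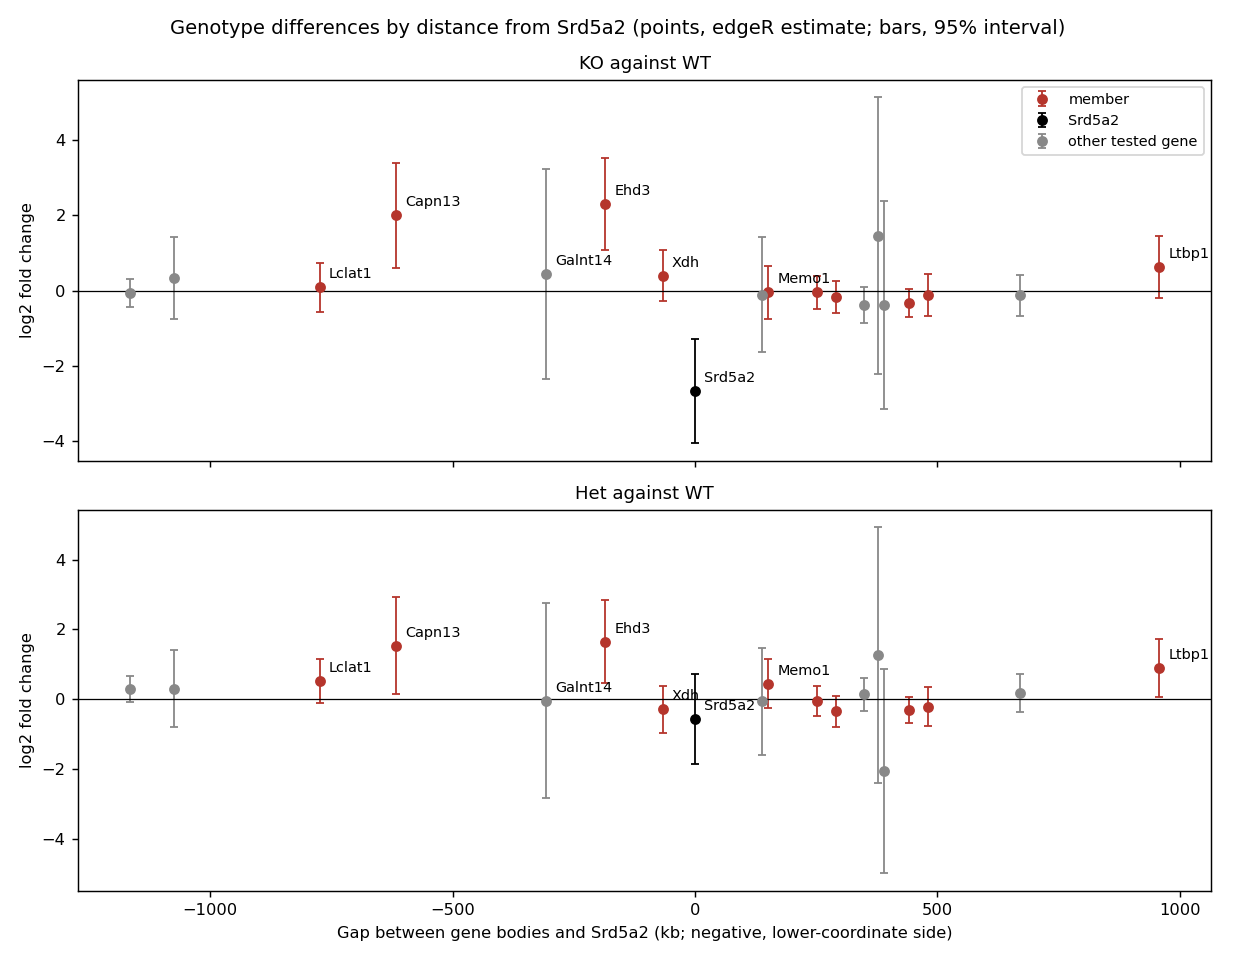
Log2 fold change of KO against WT (top) and Het against WT (bottom) for the tested genes within 1200 kb, plotted at their gap from Srd5a2 in kb, with bars for the 95% interval of the edgeR fit. Ehd3 and Capn13 stand at 2.30 and 2.0 in the upper panel at 185 and 616 kb, while Xdh at 66.8 kb and Memo1 at 151 kb are at 0.40 and -0.04.

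The size of the difference did not fall off with distance among the members in KO against WT. The nearest 2, Xdh and Memo1, had 0.40 and -0.04, the third, Ehd3, had 2.30, and Capn13, at more than 3 times the distance of Ehd3, had 2.0. Spearman's rho between gap and absolute log2 fold change over the 10 members was 0.15 in KO against WT, 0.30 in Het against WT and -0.39 in KO against Het. It is a description only, since the genes share all 9 libraries and were listed with their values known. It also leaves out the 6 other tested genes within 1 Mb, so no general rule on distance is drawn from it. Both wide differences lie on the lower-coordinate side, where Xdh, closer in, and Lclat1, farther out, had smaller values. Galnt14, between Ehd3 and Capn13, had 0.43, with an interval of -2.36 to 3.22 that holds the values of both. Its value rests on 0 to 34 reads per library, so whether Galnt14 differed less than Ehd3 and Capn13 cannot be told.

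By bins of distance, KO against WT had a median absolute log2 fold change of 0.25 within 250 kb (4 genes), 0.36 from 250 to 500 kb (8 genes) and 0.37 from 500 kb to 1 Mb (4 genes). It was 0.34 from 1 to 2 Mb (5 genes), 0.18 from 2 to 5 Mb (31 genes), 0.24 from 5 to 10 Mb (48 genes) and 0.21 beyond 10 Mb on the chromosome (711 genes). Over all tested genes it was 0.24, and over the 10 members 0.25, or 0.14 over the 8 members without Ehd3 and Capn13. The members' medians in the other comparisons were 0.40 against 0.32 over all genes in Het against WT and 0.36 against 0.27 in KO against Het. As the list was drawn up with values known, nothing about the group is read from them. An absolute value over 1 was found in 3 of the 16 tested genes within 1 Mb (18.8%) and in 11.5% of all tested genes, and the third gene was Nlrc4, with its few reads.

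**Figure D4:**
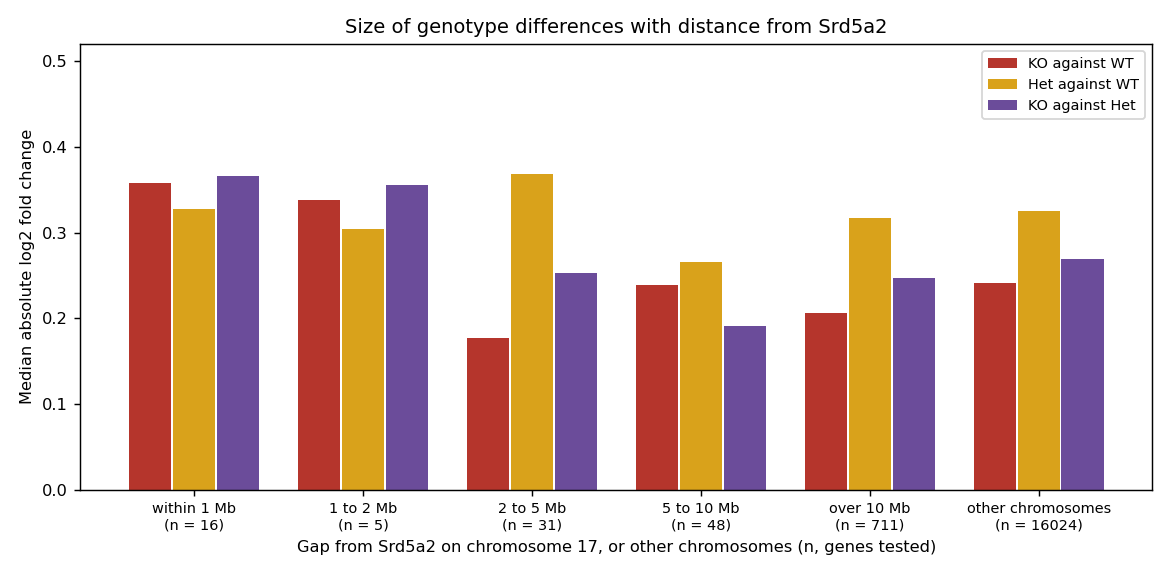
Median absolute log2 fold change (bars from 0, no error shown) of tested genes by their gap from Srd5a2 on chromosome 17 and on the other chromosomes, for the 3 genotype comparisons, with the number of genes under each bin. In KO against WT the bar is 0.36 within 1 Mb (16 genes) and 0.34 at 1 to 2 Mb (5 genes), against 0.24 over all tested genes.

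Farther along the chromosome, no gene between 1 and 10 Mb passed in edgeR, and the 3 with the smallest p in KO against WT were Lrrc30, Ankrd12 and Epb41l3 (adjusted p = 0.9996 each). Lrrc30, a leucine-rich repeat protein gene 6.38 Mb away, had 0 reads in the WT and Het libraries and 12, 91 and 18 reads in KO. That is at least 45.9-fold higher than WT and at least 44.0-fold higher than Het, taking a floor of 3 counts for the whole group, for counting error only. Without KO 2, the library with the highest count and the highest skeletal muscle sum, the bounds are 16.3-fold and 15.6-fold, and the part of that tissue was not tested. Ankrd12, 7.94 Mb away, had a log2 fold change of -0.57 (SE 0.19), and Epb41l3, a membrane skeleton protein gene 4.73 Mb away, 1.87 (SE 0.71). Alk, a receptor tyrosine kinase gene 1412 kb away on the lower-coordinate side, is given here after its values were seen. It had 0 reads in WT, 0, 37 and 0 in Het, and 3, 58 and 21 in KO, at least 30.9-fold higher in KO than in WT by the same floor and 12.8-fold without KO 2, and it did not pass in edgeR (adjusted p = 0.9996).

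The genes most like Ehd3, Capn13, Xdh and Srd5a2 over the 9 libraries were found by Pearson's r of log2 CPM, as a description in which all points share the libraries. For Ehd3 they were Aspa (0.96), Pkd1l3 (0.95), Cers1 (0.94), Csnk1e (0.94) and BC037032 (0.94), and for Capn13 they were Prune1 (0.97), Lipt2 (0.95), Cstad (0.94), Il4ra (0.93) and Iqsec1 (0.93). For Xdh they were Arg1 (0.97), Gm10516 (0.96), Rnf213 (0.95), Ddo (0.95) and E130317F20Rik (0.95). For Srd5a2 they were Cnbd2 (0.92), Tmem221 (0.92), Fip1l1 (0.91), Faim (0.90) and Adprm (0.90). None of these 20 genes is on chromosome 17, which holds only 812 of the 16836 tested genes, so nothing is read from this. Between pairs of members r ranged from -0.81 to 0.79 with a median of -0.08 (45 pairs), and between Ehd3 and Capn13 it was 0.66. Srd5a2 correlated with the members at -0.68 (Ehd3) to 0.34 (Yipf4).

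Genes that work with the members were taken as 9 lists, and edgeR called no gene of any list in KO against WT, Het against WT or KO against Het. Over all 16836 tested genes, 8512 were higher and 8324 lower in KO against WT. The lists were chosen with earlier results known, so nothing is read from their counts by direction. In KO against WT, 15 of 20 genes of endocytic recycling, the process of Ehd3, were higher and 5 lower, with a median log2 fold change of 0.04 against 0.01 over all genes. Rab11fip5 and Rab11fip3, effectors of the recycling GTPase Rab11, had 0.59 (SE 0.35) and 0.26 (SE 0.18). Of 13 calpains and their inhibitor, 10 were higher (median 0.50), with Cast, the inhibitor calpastatin, at 0.50 (SE 0.25) and Capn3, a calpain of skeletal muscle, at 1.79 (SE 0.98). The SD of Capn3 in KO, 3.1 CPM, exceeded its mean of 2.9 CPM. KO 2 had the highest skeletal muscle sum, and the part of that tissue was not tested.

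Purine breakdown and molybdenum cofactor genes, which surround Xdh, had 11 of 17 higher in KO against WT (median 0.10). Uox, urate oxidase, which acts on the product of Xdh, had WT, Het and KO means of 3.24 ± 4.35, 0.65 ± 0.05 and 13.1 ± 4.14 CPM (SD, n = 3 each), a log2 fold change of 2.01 (SE 0.89). Urah, which acts after it, had 1.13 (SE 0.52). For both, KO had the highest mean, and neither passed.

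The SET1/MLL complexes of Dpy30 had 5 of 16 higher and 11 lower (median -0.09), with the shared subunits Ash2l at -0.18 (SE 0.19) and Rbbp5 at -0.12 (SE 0.16). Microtubule severing and endoplasmic reticulum shaping genes, the company of Spast, had 12 of 15 higher (median 0.23), with Fign, another severing ATPase, at 1.12 (SE 0.57) and Rtn4, a reticulon, at 0.37 (SE 0.19). The YIP1 family of Yipf4 had 1 of 7 higher and 6 lower (median -0.06), with Yipf5 at -0.31 (SE 0.17) and Yif1b at -0.16 (SE 0.22). None of these values passed in edgeR.

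Inhibitors of apoptosis, their antagonists and caspases, the partners of Birc6, had 8 of 13 higher (median 0.07), with Birc2, a ubiquitin ligase of that family, at -0.39 (SE 0.17) and Htra2, a mitochondrial antagonist, at 0.59 (SE 0.28). Lysophospholipid acyltransferases and cardiolipin genes, beside Lclat1, had 8 of 18 higher (median -0.05), with Agpat3, an acyltransferase, at 0.41 (SE 0.30) and Crls1, cardiolipin synthase, at -0.25 (SE 0.20). Latent TGF-beta and microfibril genes, beside Ltbp1, had 12 of 19 higher (median 0.09), with Itgb6, an integrin subunit that activates TGF-beta, at 1.13 (SE 0.46) and Mfap2, a microfibril protein, at 1.27 (SE 0.59). Over all 9 lists (138 genes tested), the unadjusted edgeR p in KO against WT was under 0.05 for Uox and Itgb6, higher, and Birc2, lower. That is 2.17% of the 138, against 3.57% of all genes, and DESeq2 and limma voom called 0. In Het against WT, 6 genes were higher and 4 lower at that threshold (7.25% of the 138, against 9.04% of all genes), and DESeq2 called 2, Rab11fip1 and Mfap5 (1.45% against 1.22%). In KO against Het, 5 were higher and 2 lower (5.07% against 6.23%), and DESeq2 called 3, Uox, Mfap5 and Rab11fip1 (2.17% against 1.01%). Limma voom called 0 in both, and with quality weights 5 in Het against WT, Rab11fip1, Kmt2b, Ehd4, Birc2 and Mfap5 (3.62% against 4.15%). The calls of DESeq2 and of the quality weights were named after they were seen.

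The values in KO against WT were recomputed under 21 alternatives of normalisation, filter, test, covariate and libraries. Ehd3 and Capn13 kept their sign under each of them, as did Xdh, Yipf4, Ltbp1 and Srd5a2. Memo1, Dpy30, Spast, Birc6 and Lclat1, the members with values closest to 0, changed sign under 2 or 3 alternatives each.

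**Figure D5:**
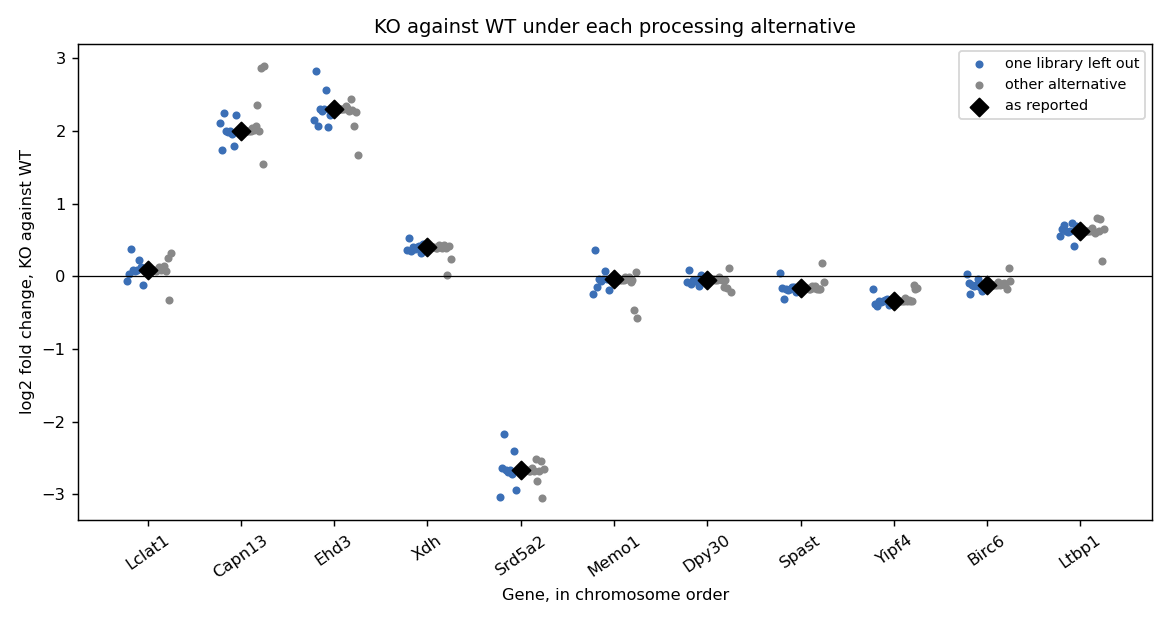
Log2 fold change of KO against WT for the 10 members and Srd5a2 as reported (diamonds) and under each alternative processing (points; blue, 1 library left out; grey, other settings). Ehd3 stays between 1.67 and 2.82 and Capn13 between 1.55 and 2.90, while 5 of the 11 genes cross 0 under at least 1 setting.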

How the data were processed

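The authors deposited 1 table of raw read counts per gene for the 9 libraries and FPKM values per library (fragments per kilobase, scaled to library size). Their table of genotype-mean FPKM was not used. Per the labels, RNA was poly(A)-enriched and made into libraries with 250 to 300 bp inserts. Per the submitters' processing notes the build was GRCm38 (mm10). Aligner, counter and strand setting: not given in the sources used here. Antisense reads may therefore not be separated.

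Counts were fitted with edgeR 4.0.16 (R 4.3.3; quasi-likelihood, robust, TMM, filterByExpr) over all 9 libraries with genotype as the only factor, or the number of null alleles as a numeric term, with Benjamini-Hochberg adjustment over 16836 genes and a threshold of 0.05. Members and lists were chosen with earlier results of these data known. The fit was tested on simulated counts with the same spread setting for all genes. Changes were put only in genes of higher mean CPM than Ehd3, Capn13 and Srd5a2, so the simulation does not cover changes in genes this low. SE and 95% intervals come from this fit. Total counts of 16233392 to 24017791 limit genes of few reads.

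Named are Srd5a2, the members, tested genes within 1 Mb, the 3 with the smallest p at 1 to 10 Mb, 2 with the smallest p per list and the 5 most correlated genes (log2 CPM, prior count 2). Lbh, Ypel5, Alk and the EHD and LTBP relatives were named after their values were seen. Alternatives were DESeq2 1.42.0, limma 3.58.1 voom with and without quality weights, other normalisations and filters, the compared groups alone, Sbp or a skeletal muscle score as a covariate, windows of 500 kb and 2 Mb, and leaving out libraries. The bounds of Lrrc30 and Alk without KO 2 were added after seeing the data.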

Additional observations from a re-analysis of the deposited data

How the results depend on the processing

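The counts of genes called by edgeR, 0 in each comparison, were higher under some alternatives. DESeq2 called 14 genes in KO against WT, 205 in Het against WT, 169 in KO against Het and 4 in the allele trend. Voom with quality weights called 699 in Het against WT, the fit on only the groups compared 1 in KO against WT, and the fit with no low-count filter 2 in KO against Het. Without the 3 libraries low in Sbp, which leaves 1 WT and 2 Het libraries, the lone WT library being assumed to vary like the other groups, 1 gene was called in Het against WT and 1 in KO against Het. Leaving out 1 library in turn gave 0 to 1 in KO against WT, 0 to 258 in Het against WT and 0 to 18 in KO against Het, each highest without Het 1. Of genes within 1 Mb, DESeq2 called 1 in KO against WT (Ehd3), and omissions gave 0 to 1 in Het against WT (Ltbp1, without Het 1). The cause was not tested. Of 913 values of the members and Srd5a2 under alternatives, 891 moved by less than 1 SD between libraries and 22 by more, and 15 of 44 gene and comparison pairs changed sign under at least 1. Ehd3 and Capn13 kept their sign in KO against WT and Het against WT under all alternatives run. No paired analysis was possible because the labels give no shared replicate numbers. With 3 libraries per genotype and 12 to 108 reads per library on Ehd3, intervals are wide.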
